A study of Rattus norvegicus with 8 samples.

Results

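The genes examined here write, copy, read or remove DNA methylation, or form the core of Polycomb repressive complex 2 (PRC2). Of the 10 genes named (Dnmt1, Dnmt3a, Dnmt3b, Uhrf1, Tet1, Tet2, Tet3, Ezh2, Suz12 and Eed), 4 had a probe on the Arraystar rat lncRNA array whose RefSeq transcript is assigned to the gene in the reference table. These were Dnmt1, Dnmt3a, Ezh2 and Eed, of 13888 genes so matched, with 5 of the 15323 probes for mRNAs, and Dnmt3a was the gene with 2 of them. The other 6 genes (Dnmt3b, Uhrf1, Tet1, Tet2, Tet3 and Suz12) were not analysed here.

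All samples came from male F344 rats at week 95. Tumors and normal lung tissues (3 arrays each) were both taken from rats that had received NNK, a lung carcinogen found in tobacco smoke, so normal lung here means exposed lung without tumor, and the labels call the tumors matched to it. The 2 blood arrays were made from clots of whole blood, 1 from the control group and 1 from the NNK group. One label of the NNK clot describes a tumor instead. Its other labels name a clot, and it was used as blood.

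DNA methyltransferases attach methyl groups to the cytosine of CpG pairs. Dnmt3a and Dnmt3b set new marks, Dnmt1 copies them at replication with the help of Uhrf1, and the Tet enzymes oxidise them on the way to removal. PRC2 methylates histone H3 at lysine K27 through the enzyme Ezh2, which needs Eed and Suz12, and the resulting mark is read by PRC1. In lung cancer, methylation of CpG-rich promoters is known to accompany the silencing of several tumor suppressor genes, and Ezh2, Dnmt1 and Uhrf1 are known to be expressed mostly in cycling cells.

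The promoters of the 3 genes that could be compared are shown because they differ in CpG content and in the letters associated with cell-cycle genes. Each is the 300-base RefSeq window around the gene start on GRCr8, most of it upstream, written 5′ to 3′ on the gene's strand. Capitals mark E2F letters (TTTCCCGC, TTTCGCGC, TTTGCCGC or TTTGGCGC) and CCAAT, each searched on both strands. Ezh2 lies at chr4:77687134-77687433 on the minus strand, Eed at chr1:153307451-153307750 on the minus strand, and Dnmt3a at chr6:32598352-32598651 on the plus strand.
Ezh2: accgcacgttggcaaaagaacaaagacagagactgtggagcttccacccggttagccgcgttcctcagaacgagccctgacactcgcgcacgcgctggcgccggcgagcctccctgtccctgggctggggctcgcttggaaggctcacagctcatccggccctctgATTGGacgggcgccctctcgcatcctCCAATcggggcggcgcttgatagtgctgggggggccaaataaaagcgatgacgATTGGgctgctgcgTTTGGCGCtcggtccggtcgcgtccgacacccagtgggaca
Eed: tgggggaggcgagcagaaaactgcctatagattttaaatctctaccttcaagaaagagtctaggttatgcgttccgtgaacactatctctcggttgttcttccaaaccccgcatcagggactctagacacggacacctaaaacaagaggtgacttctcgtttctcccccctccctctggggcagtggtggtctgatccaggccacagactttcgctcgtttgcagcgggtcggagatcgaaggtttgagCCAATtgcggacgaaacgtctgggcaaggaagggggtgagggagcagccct
Dnmt3a: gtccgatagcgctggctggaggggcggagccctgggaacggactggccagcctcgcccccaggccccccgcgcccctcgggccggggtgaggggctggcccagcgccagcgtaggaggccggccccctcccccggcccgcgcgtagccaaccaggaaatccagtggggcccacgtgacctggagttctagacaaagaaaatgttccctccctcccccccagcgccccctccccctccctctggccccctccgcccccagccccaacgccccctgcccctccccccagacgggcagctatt

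The Ezh2 window held 30 CpG pairs, 1 match to the E2F letters and 3 to CCAAT, and none of these matches overlapped another. The Eed window held 15 CpG pairs, 0 E2F matches and 1 CCAAT, and the Dnmt3a window 21 CpG pairs and 0 matches to either. Over all 33469 promoters the median was 7 CpG pairs, 2.14% held E2F letters and 37.5% held CCAAT. A match describes the letters in this window and is not evidence of a bound site.

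Array quality bears on every value below. The 3 normal lung arrays differed from each other by less than the spread between repeated spots of the same array (observed over expected squared difference 0.467 to 0.787), and so did tumor arrays 2 and 3 (0.466), whereas tumor array 1 stood apart from these by 3.03 and 3.36. Arrays of different groups stood apart by 8.35 to 12.8. In means with an SD the near-identical arrays were therefore counted as 1 sample, and p-values over the 6 arrays measure a spread that may be technical. Tumor array 1 was on the slide of the normal lung arrays and tumor arrays 2 and 3 were on another, so that in the tumors the sample and the slide cannot be told apart. Markers were read beside the labels. All 7 type 2 alveolar genes measured were well above background on every lung array. On the clots 4 (control) and 6 (NNK) of them were. Their mean log2 signal was 16.62 to 16.63 in normal lung, 17.06 to 17.10 in tumor, and 6.34 (control) and 6.49 (NNK) on the clots. All 7 red blood cell genes were above background on every lung and clot array. Their mean was 17.78 (control) and 17.49 (NNK) on the clots, 12.45 to 12.48 in normal lung and 10.07 to 10.20 in tumor. Above-background calls alone therefore do not tell the tissues apart, and lung and clot levels were normalized separately.

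Among the DNA methyltransferases, Dnmt1, the maintenance enzyme, was never well above background. Its processed signal was 2.66, 3.59 and 2.39 on the normal lung arrays and 2.59, 2.21 and 2.71 on the tumor arrays. On the clot arrays it was 3.14 (control) and 7.97 (NNK). The lowest signal of any probe called well above background was 9.19 to 16.9 on the lung arrays, 11.9 on the control clot and 31.1 on the NNK clot, so the Dnmt1 probe (NM_053354.3) was below that limit on all 8 arrays and no fold change is given.

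Dnmt3a, the de novo enzyme, was slightly lower in tumor on both of its probes, and only one of the probes passed the test. On the probe for NM_001003958.1 the log2 normalized signal was 8.78, 8.71 and 8.86 in normal lung and 8.62, 8.46 and 8.52 in tumor. On the probe for NM_001003957.1 it was 8.63, 8.58 and 8.79 in normal lung and 8.56, 8.39 and 8.38 in tumor. The groups did not overlap on either probe, nor did they on 72.9% of all probes tested and 74.2% of the mRNA probes. Tumor array 1 was closest to normal lung on both. In limma the first probe was lower by a log2 value of -0.24 (SE 0.071, adjusted p = 0.0282), which is 1.18-fold. The second was at -0.22 (SE 0.087, adjusted p = 0.0673) and did not pass. Both probes belong to the same gene and are not independent measurements of it.

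Ezh2, the catalytic subunit of PRC2, was lower in tumor than in normal lung, with the difference carried by tumor arrays 2 and 3. The log2 signal of its probe (NM_001134979.1) was 6.82, 6.81 and 6.95 in normal lung. In tumor it was 6.68 on array 1, 6.08 on array 2 and 5.98 on array 3. The groups did not overlap on this scale, as on 72.9% of all probes tested. Array 1 differed from the normal mean by -0.18, whereas the mean of arrays 2 and 3 differed from it by -0.83. Before normalization the processed signal on tumor array 1 was 105.6, within the 100.7 to 110.8 of the normal lung arrays. In limma the log2 fold change was -0.62 (SE 0.20, adjusted p = 0.0388), or 1.53-fold lower. Without tumor array 1 it was -0.82 (adjusted p = 0.000657 in limma). That fit set the near-identical tumor arrays 2 and 3 against near-identical normal arrays on another slide, so its p-value may measure technical spread only. Within the slide that held both groups, where tumor array 1 was the only tumor, the log2 fold change was -0.18. Counting near-identical arrays as 1 sample, the tumor mean was 6.36 ± 0.46 (SD, n = 2) against a single normal value of 6.86, and the adjusted p was 0.402 in limma.

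Eed, the PRC2 subunit that binds the trimethylated histone tail, differed in the opposite direction and by less. Its probe (NM_001106278.2) gave a log2 signal of 15.01, 15.03 and 15.09 in normal lung and 15.34, 15.24 and 15.23 in tumor. Here too the groups did not overlap, as on 72.9% of all probes tested. Tumor array 1 was now the one farthest from normal lung. In limma Eed was higher by 0.23 (SE 0.059, adjusted p = 0.0181), or 1.17-fold. Within the shared slide, where tumor array 1 was the only tumor, the difference was 0.31. Under a 75th percentile shift in place of quantile normalization the difference was 0.10 (adjusted p = 0.301 in limma). Counting near-identical arrays as 1 sample, the tumor mean was 15.29 ± 0.079 (SD, n = 2) against 15.04.

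**Figure D1:**
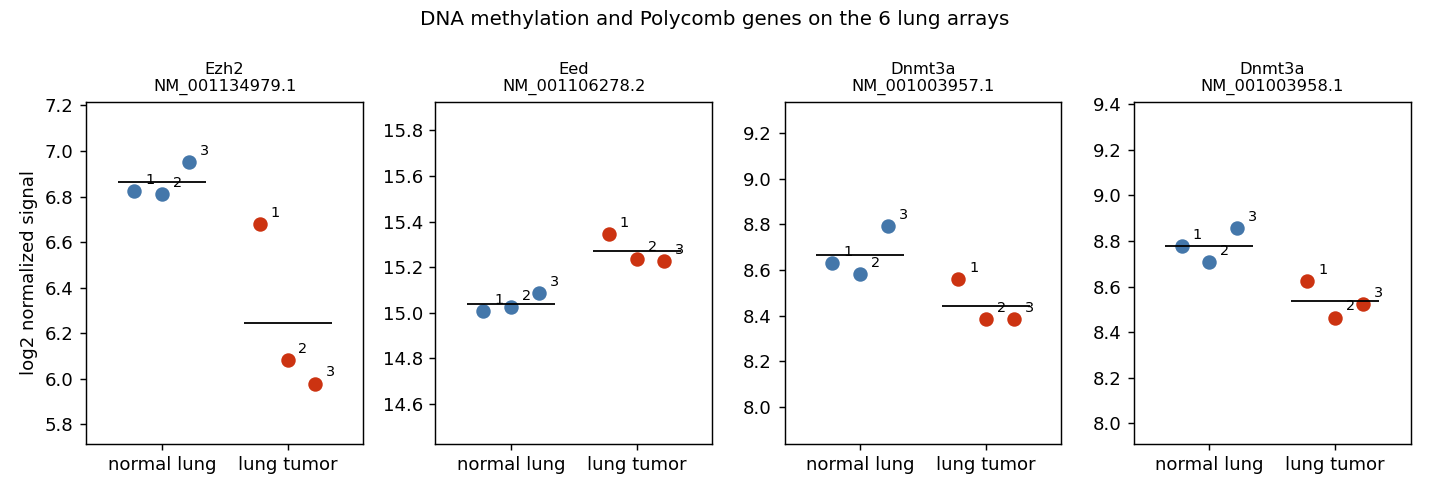
Log2 normalized signal (vertical axes, each spanning the same range of log2 units) of the 4 probes of Ezh2, Eed and Dnmt3a on the 3 normal lung arrays (blue) and the 3 lung tumor arrays (red), numbered by replicate, with the mean of the 3 arrays as a line. The groups do not overlap on any of the 4 probes, as on 72.9% of all probes tested, and tumor array 1 of Ezh2 (6.68) lies nearer to normal lung than arrays 2 and 3 (6.08 and 5.98).

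Of the 4 probes tested, 1 rose (Eed), 2 fell (Ezh2 and 1 of Dnmt3a) and 1 did not pass, at an adjusted p of at most 0.05. Of all 12471 probes tested 65.1% passed that threshold (33.7% higher and 31.4% lower), and of the mRNA probes 66%, so the count of 3 of 4 is near the background. When a 2-fold change was required as well, 0 of the 4 probes were called, against 29% of all probes (13.5% higher and 15.5% lower). All 3 calls at adjusted p alone were lost when the replicate number was used as a block in limma (Ezh2 adjusted p = 0.0683, Eed 0.0687, Dnmt3a 0.0574), under which 59.1% of all probes passed. They were also lost under the 75th percentile shift, where 66.5% of all probes passed, and when near-identical arrays were merged, where 14.2% did. In a mixed tissue fewer cells of a type and less RNA per cell cannot be told apart.

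**Figure D2:**
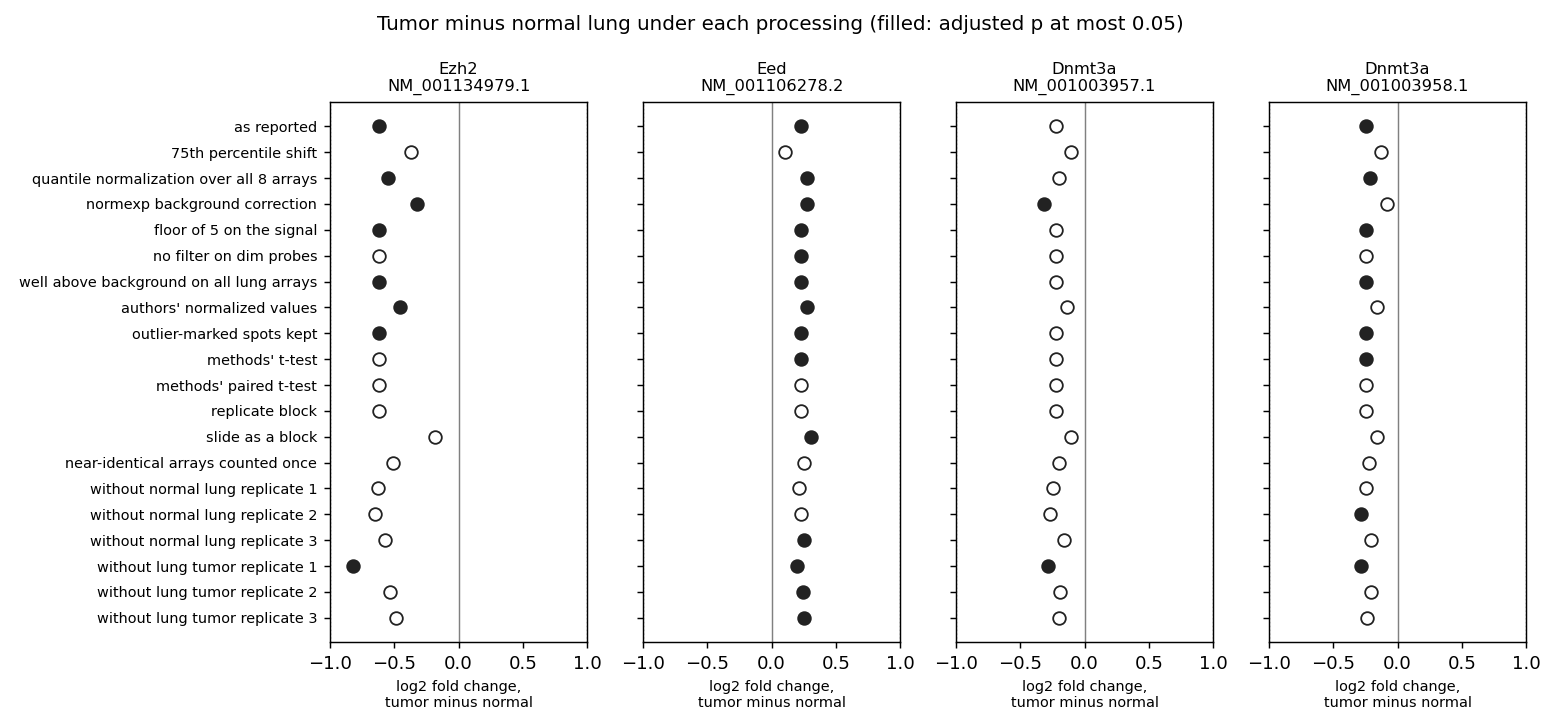
Log2 fold change of lung tumor minus normal lung (horizontal axes) for the same 4 probes under each way of processing (vertical axis), filled where the Benjamini-Hochberg adjusted p was at most 0.05. The directions held under all 19 alternatives shown, Ezh2 ranged from -0.82 to -0.18 and Eed from 0.10 to 0.31, and the number of filled points differed between settings.

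The cofactors around the methyltransferases were read next, from a list of 33 writers, readers and erasers of which 29 had a probe and 21 were tested. The list had a median log2 fold change of -0.03, against 0.00 over the 8637 mRNA probes tested, with 1 gene higher and 2 lower at 2-fold and adjusted p. The genes beyond 2-fold make up 14.3% of those tested, against 28.3% of mRNA probes. At adjusted p alone 7 were higher, 5 were lower and 9 did not pass, against 32.6% higher and 33.4% lower of mRNA probes.

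Dnmt3l, a catalytically inactive cofactor of the de novo enzymes, was 4.20-fold lower in tumor. Its log2 signal was 11.17, 11.11 and 11.08 in normal lung and 9.24, 9.01 and 8.89 in tumor, with all tumor arrays far below all normal arrays. The log2 fold change was -2.07 (SE 0.10, adjusted p = 3.22e-05 in limma) and ranged from -2.18 to -1.80 over 19 alternatives, all of which kept the call. Cxxc4, a CXXC zinc finger protein that binds unmethylated CpG, had a log2 signal of 5.47, 5.17 and 5.06 in normal lung and 3.66, 2.78 and 3.42 in tumor. It was 3.86-fold lower (adjusted p = 0.00138 in limma), although only 1 of its 3 tumor spots was well above background, and under the normexp correction the log2 fold change was -0.38.

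Trim28, a corepressor that protects imprinted methylation marks, rose 2.21-fold. Its log2 signal was 14.83, 14.85 and 14.89 in normal lung, 15.55 in tumor 1, 16.18 in tumor 2 and 16.27 in tumor 3 (adjusted p = 0.00444 in limma). As with Ezh2, tumor array 1 was the one closest to normal lung. Within the shared slide, where that array was the only tumor, Trim28 was below 2-fold, at a log2 value of 0.70. Without tumor array 3 it was at 1.00 and just under the 2-fold line.

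The partners of PRC2 held the largest fall among the Polycomb lists. Of 8 partners 6 had a probe and 5 were tested, 0 were higher and 1 was lower at 2-fold, and their median was -0.38. This is 20% of those tested, against 28.3% of mRNA probes called in either direction. Phf19, a Polycomb-like protein that recruits PRC2 to chromatin, had a log2 signal of 13.48, 13.38 and 13.44 in normal lung and 11.12, 11.12 and 11.11 in tumor. This is 4.98-fold lower (log2 -2.32, SE 0.052, adjusted p = 4.83e-06 in limma), and the tumor arrays hardly differed among themselves. Over the alternatives it ranged from -2.46 to -2.20, with the call kept in all 19. Ezh1, the other H3K27 methyltransferase, was at -0.38 and the histone-binding proteins Rbbp4 and Rbbp7 were at -0.42 and 0.39, all past the adjusted threshold and under 2-fold. Phf1 was at -0.35 and did not pass.

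PRC1 is the complex that reads the mark and ubiquitylates histone H2A. Of 22 subunits 17 had a probe and 11 were tested, with 3 higher and 0 lower at 2-fold and a median of -0.13. The 3 make up 27.3% of those tested, near the 28.3% of mRNA probes called. With outlier-marked spots kept 15 subunits were tested, the counts were again 3 and 0, and the median was 0.17. Cbx2, a chromodomain subunit, had a log2 signal of 8.72, 8.48 and 8.70 in normal lung and 10.23, 10.42 and 10.23 in tumor. It was 3.17-fold higher (adjusted p = 5.89e-05 in limma). The groups did not overlap, as on 74.2% of the mRNA probes. Its paralogs Cbx6 and Cbx8 were lower, under 2-fold, at -0.45 and -0.21 (adjusted p = 0.00505 and 0.0405 in limma). Cbx7 was not tested, and with outlier-marked spots kept it was at -0.64 (adjusted p = 0.00108 in limma).

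Ring1, a ubiquitin ligase of PRC1, rose 2.84-fold (adjusted p = 0.000316 in limma), from 9.10, 8.93 and 8.85 in normal lung to 10.52, 10.41 and 10.39 in tumor. One of its tumor spots carried an outlier mark and was left out of the fit. The calls of Cbx2 and Ring1 were kept in all alternatives that gave a value, 19 for Cbx2 and 17 for Ring1. Bmi1, their ring finger partner, was less even, with 6.58, 5.38 and 5.36 in normal lung and 7.70, 7.06 and 6.68 in tumor. Its normal array 1 lay close to tumor array 3. Bmi1 was 2.59-fold higher (SE 0.43 on the log2 scale, adjusted p = 0.0363 in limma), and the call was lost in 8 of 19 alternatives, among them those without normal array 2 or 3 (adjusted p = 0.104 and 0.103 in limma) and without tumor array 1 or 2 (adjusted p = 0.0894 and 0.0851 in limma). In the same 11 PRC1 genes, 5 were higher and 4 lower at adjusted p alone, against 32.6% higher and 33.4% lower of mRNA probes.

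Of the 15 genes known to oppose Polycomb, such as H3K27 demethylases and trithorax proteins, 6 had a probe and 1 was tested. This was Smarcb1, a subunit of the SWI/SNF remodeler, at a log2 fold change of 0.51 (adjusted p = 0.00652 in limma), under 2-fold. With outlier-marked spots kept 5 were tested, the median was 0.15, and 0 passed 2-fold. At adjusted p alone Smarcb1 was then higher and 2 were lower, the trithorax methyltransferases Kmt2a (-0.71, adjusted p = 0.0013 in limma) and Ash1l (-0.48, adjusted p = 0.000622 in limma). With these spots kept 66.1% of all probes passed the adjusted threshold.

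A further list holds 20 genes whose promoters are known for methylation in human lung cancer. The array measured RNA and not methylation. Of these, 17 had a probe and 12 were tested, 1 was higher and 7 were lower at 2-fold, and the median was -1.09. Among all mRNA probes tested 11.5% were higher and 16.8% lower at these thresholds. The largest fall was in Gata4, a transcription factor of endoderm and heart, with 9.95, 10.09 and 10.02 in normal lung and 5.14, 4.73 and 4.60 in tumor. It was 36.7-fold lower (adjusted p = 7.48e-06 in limma), and the range of its log2 fold change over alternatives was -5.32 to -3.59.

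Sox17, a transcription factor of endoderm and endothelium, fell by 2.81 on the log2 scale and Cdkn1c, an imprinted inhibitor of cyclin-dependent kinases, fell by 2.53 (adjusted p = 4.18e-06 and 3.00e-05 in limma). The log2 signal of Sox17 was 16.79, 16.81 and 16.77 in normal lung and 14.06, 13.98 and 13.91 in tumor. For Cdkn1c it was 14.05, 14.41 and 14.43 in normal lung and 11.82, 11.70 and 11.80 in tumor. The other 4 that fell were Timp3, Hic1, Cdkn2b and Gata5, by 2.08-fold (Gata5) to 4.34-fold (Timp3).

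Cdkn2a, which encodes cell-cycle inhibitors and is a textbook Polycomb target, was the gene of the list that rose. Its log2 signal was 5.48, 5.09 and 5.14 in normal lung and 7.04, 7.04 and 7.05 in tumor, or 3.50-fold higher (adjusted p = 8.46e-05 in limma). The calls of Gata4, Sox17, Cdkn1c and Cdkn2a were kept in all 19 alternatives. Mgmt, the DNA repair gene best known for promoter methylation, was at -0.28 (adjusted p = 0.123 in limma).

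Over the 5 pathway lists 5 genes were higher and 10 lower of 50 tested, against 11.5% higher and 16.8% lower of mRNA probes. The number lower ranged from 7 to 12 over the alternatives and the number higher from 3 to 7, with 3 higher without tumor array 1 or without tumor array 2.

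**Figure D3:**
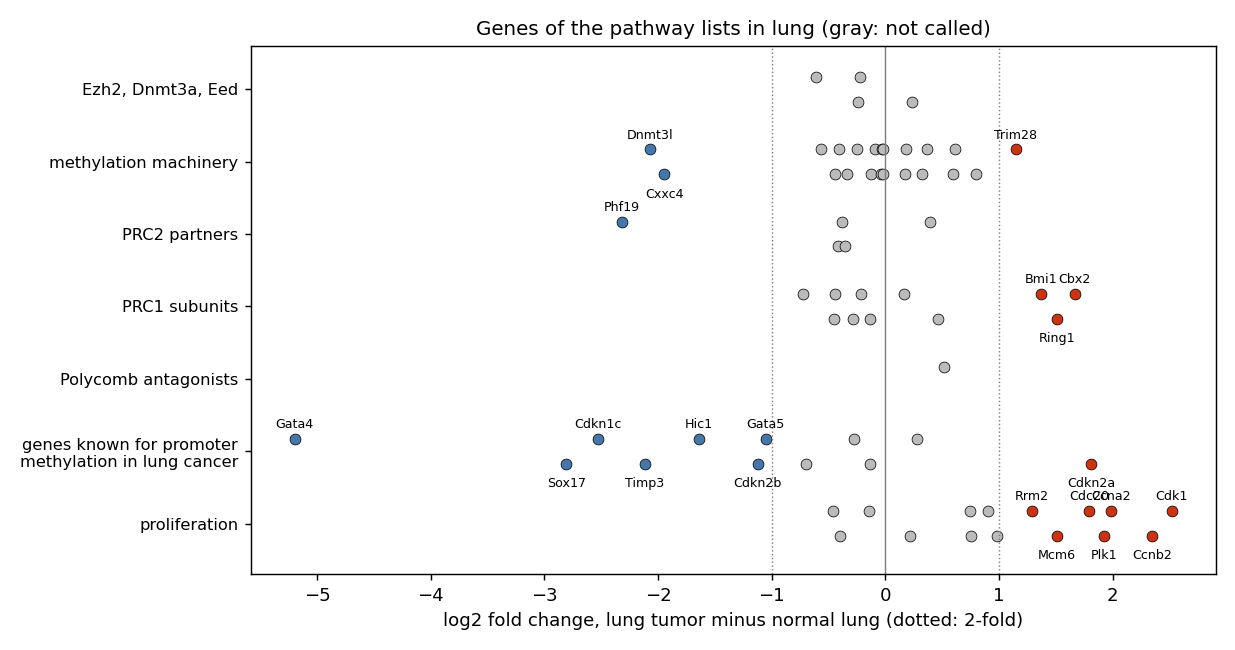
Log2 fold change of lung tumor minus normal lung (horizontal axis) for every gene tested, with 1 point a gene except Dnmt3a, which has 1 point for each of its 2 probes. Rows are the gene lists, red and blue points passed 2-fold and adjusted p (higher and lower) and are named, and gray points did not. Ezh2, Eed and Dnmt3a lie within the 2-fold lines, while Dnmt3l, Phf19 and 7 genes known for promoter methylation lie below and Cbx2, Ring1 and Bmi1 above.

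Proliferation genes are given beside Ezh2 because it is known to be expressed in cycling cells. Of 15 such genes tested, 7 were higher and 0 lower at 2-fold, against 11.5% and 16.8% of mRNA probes, and their median was 0.98. At adjusted p alone 12 were higher and 1 lower, against 32.6% and 33.4% of mRNA probes. The mean log2 signal of the 19 genes measured was 10.20 to 10.26 on the normal lung arrays and 11.19 to 11.32 on the tumor arrays. The mitotic kinase Cdk1 was 5.73-fold higher, the cyclin Ccnb2 5.09-fold and the cyclin Ccna2 3.96-fold (adjusted p = 0.000279, 7.48e-06 and 1.44e-05 in limma). These rose on all 3 tumor arrays, including array 1. On the quantile-normalized scale Ezh2 was lower on all 3. Before normalization its processed signal on tumor array 1 was 105.6, within the 100.7 to 110.8 of the normal lung arrays. Not every gene of the list rose. Aurka was lower (log2 fold change -0.46, adjusted p = 0.00348 in limma), and Tyms (-0.14) and Bub1 (-0.40) were lower without passing. The part of proliferation in the Ezh2 difference was not tested. In the promoter windows, 7 of 20 proliferation genes held E2F letters and 15 held CCAAT, as the Ezh2 window did.

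Markers of other lung cells moved with the comparison as well. Type 1 alveolar genes had a mean log2 signal of 14.73 to 14.76 on the normal lung arrays and 13.26 to 13.37 on the tumor arrays, and 5 of the 6 tested fell by at least 2-fold. Endothelial genes stood at 12.29 to 12.47 in normal lung and 10.53 to 10.76 in tumor, with 3 of 3 lower, although Cdh5 was not above background on any array. Red blood cell genes stood at 12.45 to 12.48 and at 10.07 to 10.20, with 3 of 5 lower at 2-fold. Neutrophil genes stood at 8.67 to 8.77 and at 6.31 to 7.08, with 2 of 3 lower. Platelet genes stood at 7.61 to 7.67 and at 6.51 to 6.76, with 3 of 4 lower. They did not fall together. With outlier-marked spots kept, Pf4 went from a mean of 11.99 to 12.97 and Gp5 from 5.99 to 6.68. Ppbp and Gp9 were above background on 3 normal lung arrays and 0 tumor arrays. Type 2 alveolar, airway and macrophage genes had 0, 1 and 0 genes lower at 2-fold, and Marco and Cd163 of the macrophage list were not above background on any array. The part of these cells in the changes of Ezh2, Dnmt3l, Phf19 or Sox17 was not tested.

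In blood, where each group is a single array and no test is possible, Dnmt3a and Eed were well above background on both arrays and Ezh2 and Dnmt1 on neither. The processed signal of the Ezh2 probe was 2.99 on the control clot and 6.25 on the NNK clot. For the same probe it was 73.8 to 110.8 on the lung arrays, where it was well above background on all 6. Processed signals are not normalized between arrays. Their 75th percentile was 1191 to 1329 on the lung arrays, 95.4 on the control clot and 205.8 on the NNK clot. On the log2 scale normalized within the 2 clots, Dnmt3a was at 4.98 in control and 5.33 in NNK on the probe for NM_001003958.1, a difference of 0.36. On the probe for NM_001003957.1 the difference was 0.35, with a processed signal of 19.7 in control and 65.2 in NNK before normalization. Eed was at 10.42 in control and 11.47 in NNK, or 2.07-fold higher.

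For Eed the 2-fold line was passed on this scale and not on others, where the log2 difference was 0.34 when arrays were shifted to their 75th percentile, 0.77 when all 8 arrays were quantile-normalized together and 0.71 in the authors' values. Of mRNA probes compared in blood 26% were at least 2-fold higher and 17.8% lower (23.1% and 19.1% of all probes), so 1 of the 2 genes compared being higher is a description of these arrays. Ranked within each array, the probes of Dnmt3a and Ezh2 stood higher on all 6 lung arrays than on both clots. For NM_001003958.1 the percentile was 61.5 to 62.9 in lung and 53.3 and 56.3 in blood, and for Eed it was 94.3 to 95.5 in lung and 91.4 and 94.4 in blood, which overlap.

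Among the partners in blood, 25 genes of the methylation list were compared, with 8 at least 2-fold higher and 4 lower in NNK. Beside this and the counts below, 26% of all mRNA probes compared in blood were at least 2-fold higher and 17.8% lower. Cxxc5 and Dmap1, a CXXC protein and a Dnmt1-associated protein, were 7.50-fold and 4.84-fold higher, and Cxxc4 and Dnmt3l were 5.78-fold and 2.23-fold lower. Of 4 PRC2 partners Phf1, an H3K36me3-binding accessory protein, was 2.11-fold higher and the other 3 were under 2-fold. Of 15 PRC1 subunits 5 were higher and 3 lower, led by Phc2 (9.97-fold) and L3mbtl2 (5.21-fold) and by Yaf2 (3.15-fold lower) and Pcgf3 (2.17-fold lower).

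Of the 6 Polycomb antagonists 3 were higher and 1 lower, against 26% and 17.8% of mRNA probes. Kmt2a was 3.34-fold and the SWI/SNF ATPase Smarca4 2.81-fold higher. Of 12 genes known for promoter methylation 4 were higher and 3 lower, with Mgmt 10.6-fold and Rassf1, a tumor suppressor of the Ras pathway, 3.18-fold higher. In the other direction Timp3, an inhibitor of matrix metalloproteinases, was 7.66-fold and Cdkn2b, a cell-cycle inhibitor, 2.39-fold lower. White cell markers moved between the same arrays, with a median log2 difference of 1.97 over 7 T cell genes, 1.23 over 5 neutrophil genes and 1.14 over 4 B cell genes, while 5 platelet genes had a median of -1.11. Cd4 was not above background on any array. Their part in the differences was not tested.

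**Figure D4:**
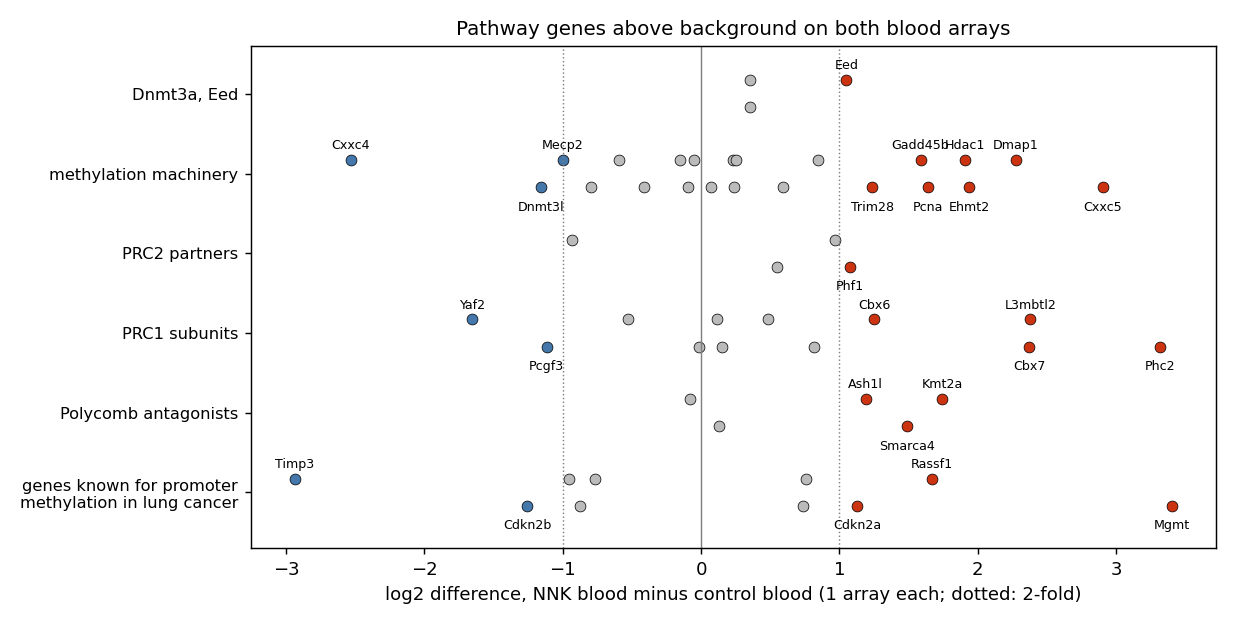
Log2 difference of NNK blood minus control blood (horizontal axis, 1 array each, so without error) for the genes of each list that were well above background on both clot arrays. Red and blue points lie at or beyond 2-fold and are named, gray points do not, and Eed lies just past the line at 1.05 while both Dnmt3a probes lie near 0.35.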

How the data were processed

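The intensity values used were the processed signals per spot that the authors deposited for all 8 arrays, background-subtracted by Agilent Feature Extraction 10.5.1.1. The authors also deposited log2 values that they had quantile-normalized in GeneSpring over all 8 arrays, used as an alternative. The processed signals were set to log2 and quantile-normalized for lung (6 arrays) and for the 2 clots separately (R 4.3.3, limma 3.58.1). Spots with an outlier mark were left out. A probe was tested in lung if it was well above background on at least 3 of 6 arrays and measured on at least 2 arrays per group, which left 12471 of 24684 probes. Groups were compared with limma's lmFit and eBayes, with group as the only term and Benjamini-Hochberg adjustment over all probes tested. A call required a 2-fold change and an adjusted p of at most 0.05, and calls at adjusted p alone were also counted. The number of arrays limits the precision.

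Genes were named through RefSeq transcripts of GRCr8, in which 93.2% of mRNA probes matched. Lists used 1 probe a gene, the one with the highest mean signal. Named were all members, up to 3 genes with the largest rise and fall per pathway list among those called in lung, and up to 2 per list and direction in blood among those above background on both arrays. Genes outside that rule were named after their values were seen. The members and lists were chosen with earlier results of these data known. Slides were taken from the scan times. Labels number matched lung samples 1 to 3, and the deviations of same-numbered arrays correlated at 0.14, -0.04 and 0.16, so the replicate block was kept as an alternative. The fits were tested on simulated data. Alternatives covered normalization, background correction (normexp, offset 50, on median signals), a floor of 5, filters, outlier marks, the methods' t-test with and without pairing, blocks, near-identical arrays counted once and each lung array left out.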

Additional observations from a re-analysis of the deposited data

How the results depend on the processing

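None of the results recomputed under the alternatives (the members, the list counts and the genes named from lung lists by the rule) changed direction, but the PRC1 median turned from -0.13 to 0.17 with outlier-marked spots kept. At adjusted p alone, the count of Ezh2, Eed and Dnmt3a probes that rose (1) became 0 under the 75th percentile shift, the methods' paired t-test, the replicate block and with near-identical arrays counted once. The count that fell (2) became 0 under these 4 settings, with no filter on dim probes (21352 probes tested) and with slide as a block, and 1 with the authors' normalized values and with the methods' t-test. Leaving out each lung array gave 0 to 1 risen and 0 to 3 fallen. The 3 fallen were without tumor array 1, and 0 had risen without normal array 1 or 2. In the pairing by replicate number, the block gave 5 pathway genes higher and 10 lower, as without it. Pathway genes higher (5) became 3 with near-identical arrays counted once, and 3 to 5 when each array was left out. In blood the count of members at least 2-fold higher (1) became 0 with quantile normalization over all 8 arrays, the authors' normalized values and the 75th percentile shift. Among named genes Trim28 lost its call in 4 of 19 alternatives, Bmi1 in 8 of 19 and Cxxc4 in 2 of 18. The causes were not tested.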

Other observations

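Several genes of the methylation list were not tested because too many of their tumor spots carried outlier marks, and their values with these spots kept are given here, chosen after they were seen. Hells, a chromatin remodeler needed for DNA methylation, had a log2 signal of 9.27, 9.31 and 9.31 in normal lung and 11.49, 11.69 and 11.85 in tumor (5.20-fold higher, adjusted p = 1.75e-05 in limma). Idh1, an enzyme that makes 2-oxoglutarate, which Tet enzymes use, had a log2 signal of 8.35, 8.43 and 8.44 in normal lung. In tumor its signal was 11.10, 11.25 and 11.28 (log2 fold change 2.81, adjusted p = 4.42e-06 in limma). Its paralog Idh2, which was tested without marked spots, was at -0.03 (adjusted p = 0.749 in limma). Gadd45b, a stress gene linked to demethylation, had 13.72, 13.74 and 13.57 in normal lung and 11.85, 11.30 and 11.53 in tumor (4.34-fold lower, adjusted p = 0.000112 in limma). With marked spots kept, the methylation list had 3 genes higher and 3 lower of 27, against 11.7% higher and 15.3% lower of mRNA probes. On the tumor arrays 13.2% to 22.1% of mRNA spots carried such a mark, against 2.95% to 5.76% in normal lung.

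Other genes of the machinery passed the adjusted threshold below 2-fold, in both directions. With those beyond 2-fold included, 7 of the 21 tested were higher and 5 lower. Uhrf2, the paralog of Uhrf1, was 1.74-fold higher in tumor (adjusted p = 8.94e-05 in limma). Ehmt2, a histone H3K9 methyltransferase, was 1.51-fold higher (adjusted p = 0.000648), and Ahcy, which clears the by-product of methylation, was 1.53-fold higher (adjusted p = 0.00513, both in limma). Zbtb38, Mbd1 and Ogt were lower, by 1.48-fold, 1.33-fold and 1.19-fold (adjusted p = 0.0422, 0.00569 and 0.035 in limma).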
